A study of Homo sapiens with 12 samples.

Results

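The genes described here are the 6 SMADs that carry a receptor signal to the nucleus, SMAD1, SMAD2, SMAD3, SMAD4, SMAD5 and SMAD9. They were taken by gene symbol, and all 6 were present among the 19907 symbols measured in each of 12 libraries. Transcripts were sequenced from MDA-MB-231, an established human line of triple-negative breast cancer (TNBC) with mesenchymal features. One line carried S134A-GR, in which CRISPR knock-in changed Ser134 of both copies of the glucocorticoid receptor (GR) gene to alanine. The other kept wild-type GR (wt-GR) and came through the same procedure as a non-targeted clone.

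Before treatment each line spent 18 h of starvation in medium with 1% DCC (charcoal-stripped serum), and no glucocorticoid was named among the treatments. The groups were wt-GR with vehicle, wt-GR with TGFβ1 at 10 ng/mL, S134A-GR with vehicle and S134A-GR with TGFβ1 at 10 ng/mL, each for 6 h and each with 3 libraries. S134A-GR was clone #1 and wt-GR was also 1 clone, so the effect of the substitution and other differences between 2 clones cannot be told apart. Nothing in the sources used here says whether the libraries of a group came from separate cultures, so the tests measure the spread between these libraries only. Values are normalized counts, the reads of a gene divided by a size factor for the library. The reads recovered from them totalled 56362036 to 129832227 per library.

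Markers of the line were checked first. VIM, CD44, EGFR and NR3C1, which are expressed in MDA-MB-231, averaged 422927, 43918, 16814 and 11771 normalized counts in vehicle-treated wt-GR cells (n = 3). ESR1, the estrogen receptor, lay between 0 and 7.32 normalized counts over the 12 libraries, and the group means of the epithelial cadherin CDH1 did not exceed 9.37. The progesterone receptor symbol PGR was not among the symbols. ERBB2 was not low, at 8891 ± 35.0 (SD, n = 3) in the wt-GR vehicle group, and the epithelial gene EPCAM was at 1024 ± 64.6 there and 378 ± 51.7 in S134A-GR cells. The leukocyte marker PTPRC did not exceed 9.8 normalized counts in any library. The endothelial marker PECAM1 (1358 ± 83.8) and the luminal genes GATA3 (808 ± 20.1) and FOXA1 (229 ± 11.3) were detected in the same group. PTPRC, PECAM1, GATA3 and FOXA1 as 4 markers of other cells summed to 2344 to 2499 normalized counts in wt-GR and 2501 to 2570 in S134A-GR libraries under vehicle, and to 1947 to 1978 and 1902 to 2086 under TGFβ1. PECAM1 or GATA3 was the most abundant of them in each library, and PTPRC was at 0 in 4 libraries. The sums hide opposite differences between the lines under vehicle, with PECAM1 lower (1141 ± 54.0) and GATA3 (1093 ± 79.4) and FOXA1 (289 ± 11.8) higher in the S134A-GR line, all called by limma. Their part in the SMAD results was not tested.

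SMAD proteins are the transcription factors of the TGFβ superfamily. Type I receptors phosphorylate the receptor-regulated SMADs, with SMAD2 and SMAD3 serving TGFβ and activin receptors and SMAD1, SMAD5 and SMAD9 serving BMP receptors. Phosphorylated SMADs bind the common partner SMAD4, enter the nucleus and act on target genes together with other factors, while SMAD6 and SMAD7 inhibit the pathway. In TNBC cells TGFβ is known for promoting migration, invasion and matrix gene expression.

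SMAD3 transcript was lower in S134A-GR than in wt-GR cells and fell under TGFβ1 in both lines. SMAD1 transcript was higher in S134A-GR cells, SMAD2 was slightly lower there under vehicle, and SMAD4, SMAD5 and SMAD9 were not called in any comparison. In bulk RNA a change in the number of cells of a kind and a change in RNA per cell cannot be told apart. A gene was called when limma's adjusted p was under 0.05 over 18579 genes with at least 10 reads in total, on log2 of the normalized count plus 1. All 6 members passed that filter. Under vehicle 3 of 6 members were called between the lines, where 51.5% of all genes were called. Of these, 1 was higher in S134A-GR cells (25% of all genes) and 2 were lower (26.5% of all genes). Under TGFβ1, 2 of 6 were called (48.8% of all genes), 1 higher (23.1%) and 1 lower (25.7%). TGFβ1 changed 1 of 6 in the wt-GR line (21% of all genes) and 1 of 6 in the S134A-GR line (18.7% of all genes). Both were lower, as 9.82% and 8.69% of all genes were, while none of the 6 rose against 11.2% and 10% of all genes. These counts lie near the shares of all genes. With 2 clones that differed at about as many genes as not, no count is particular to the SMADs. The comparisons share libraries and are not independent of each other.

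No member reached an absolute log2 fold change of 1 in any comparison by limma, and the value farthest from 0 was −0.45, for SMAD3. The median log2 fold change of the 6 was −0.13 between the lines under vehicle, beside 0.02 over all genes, and −0.03 beside 0.01 under TGFβ1. For the TGFβ1 response the medians were −0.04 in wt-GR and −0.01 in S134A-GR cells, where the medians over all genes were −0.0046 and −0.0097. The 3 libraries of one group lay entirely apart from those of the other for 3 of 6 members between the lines under vehicle (57.3% of all genes), and for 2 under TGFβ1 (55.6%). For the response to TGFβ1 the numbers were 2 in wt-GR (33.9%) and 2 in S134A-GR cells (35.6%).

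**Figure D1:**
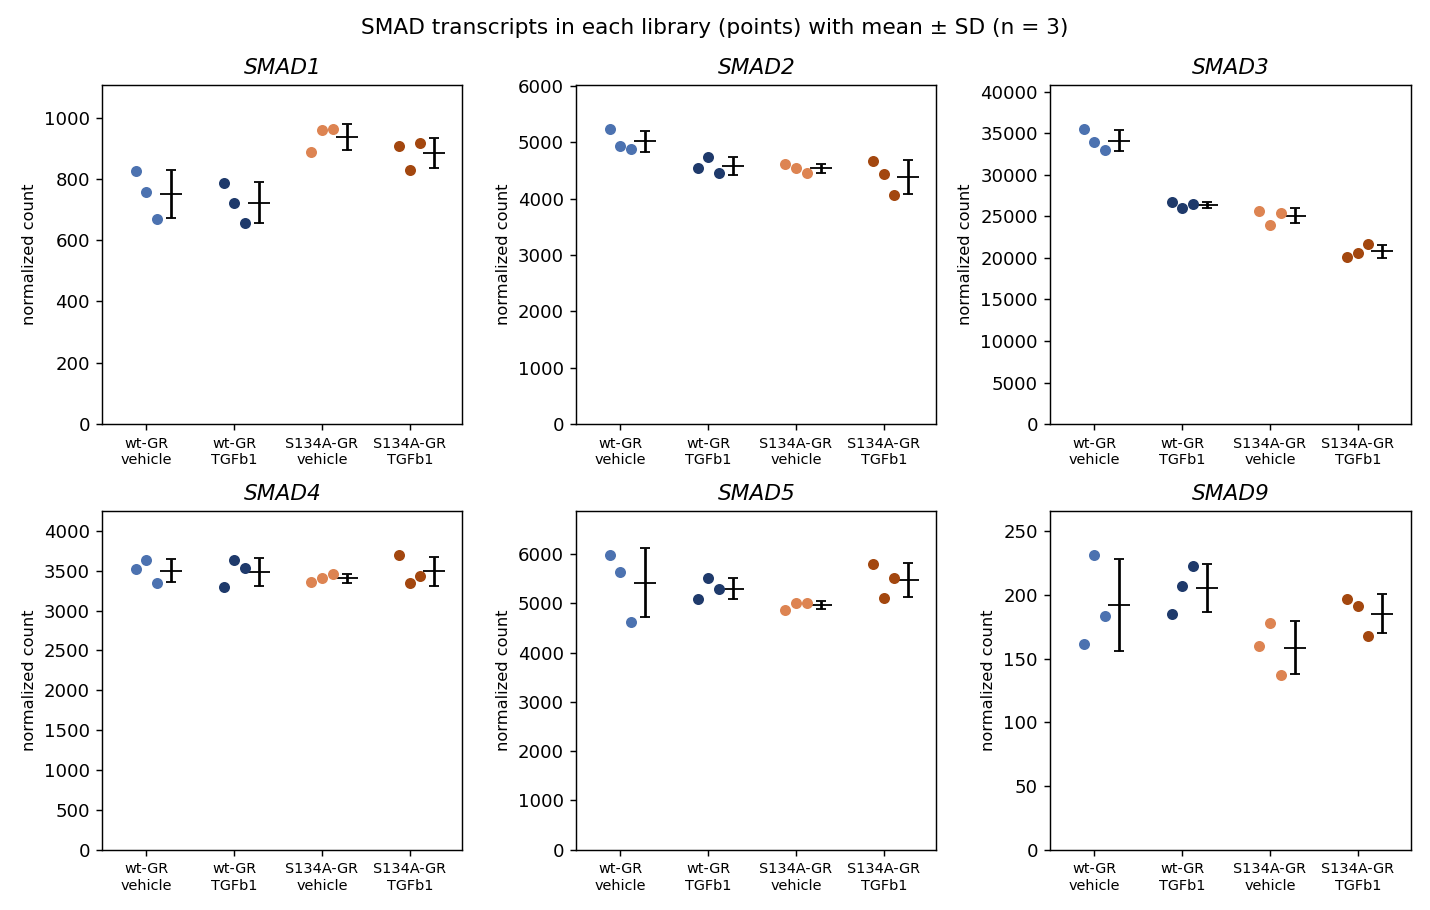
Normalized count (vertical axes, from 0) of the 6 genes in each library (points) of the 4 groups on the horizontal axes, with the mean ± SD of 3 libraries in black. SMAD3 lies at 32942 to 35505 in wt-GR cells under vehicle and at 20167 to 21692 in S134A-GR cells under TGFβ1, with the other 2 groups between them.

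SMAD3, a receptor-regulated SMAD of the TGFβ branch that binds DNA directly, is encoded on the plus strand of chromosome 15 of GRCh38 (hg38) from 67063763 to 67195173. In wt-GR cells its normalized counts were 35505, 33964 and 32942 under vehicle and 26720, 26001 and 26492 under TGFβ1. In S134A-GR cells they were 25703, 24021 and 25455 under vehicle and 20167, 20545 and 21692 under TGFβ1. Every wt-GR vehicle library lay above all 9 others, every S134A-GR library under TGFβ1 lay below all 9 others, and the 2 middle groups followed closely, without overlap. Group means of 23940 to 28523 reads stood behind these values, which gives a counting error of 0.592% to 0.646%, while the SD between libraries was 1.39% to 3.82% of the mean. Sequencing was paired-end, and whether the mates of a pair were counted once is not given in the sources used here. The study's methods state a lower average number of reads per sample than was recovered from any library. If mates were counted separately, the counting errors and read numbers given here overstate the precision.

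Between the lines, taken as S134A-GR over wt-GR, the log2 fold change of SMAD3 was −0.45 under vehicle (standard error 0.0392, 95% confidence interval −0.53 to −0.36, adjusted p = 3.84e-07 by limma), or 0.734 times the wt-GR level. Under TGFβ1 it was −0.34 (95% confidence interval −0.43 to −0.26, adjusted p = 5.27e-06 by limma). After 6 h of TGFβ1, SMAD3 fell by 0.37 on the log2 scale in wt-GR cells (95% confidence interval −0.45 to −0.29, adjusted p = 9.07e-06 by limma). In S134A-GR cells it fell by 0.27 (95% confidence interval −0.35 to −0.18, adjusted p = 0.000218 by limma). All 3 libraries showed the direction in each of these 4 comparisons. The difference between the responses was 0.10 (95% confidence interval −0.02 to 0.22, adjusted p = 0.603 by limma), so a weaker response in S134A-GR cells was not established.

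These sizes have context in the whole table. Between the lines under vehicle 17.2% of all genes had a lower log2 fold change than SMAD3, and for the response of wt-GR cells the share was 14.6%. The change of SMAD3 was therefore well resolved, as its spread was small, and not large among all genes. SMAD3 has 2 annotated long non-coding genes on the opposite strand within its span. Neither was among the symbols measured by the name used in GENCODE, and the strand setting of the counting is not given in the sources used here, so antisense reads cannot be told apart from SMAD3 reads. No 75-base stretch of its canonical transcript occurred in a transcript of another gene.

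The stretch upstream of the SMAD3 start site is shown with that of SMAD1, because these were the 2 members called between the lines under both treatments, in opposite directions. Sequences are from RefSeq (GRCh38.p14), the 250 bases before the start site that coincides with that of the canonical transcript, 5′ to 3′, at chr15:67065352-67065601 and chr4:145481603-145481852, both on the plus strand. Capitals mark GGCGCC, a GC-rich palindrome bound by SMADs, and would also mark CAGAC (a SMAD-binding element), TGACTCA (AP-1) and AGAACA (one side of the GR element), searched on both strands.
SMAD3: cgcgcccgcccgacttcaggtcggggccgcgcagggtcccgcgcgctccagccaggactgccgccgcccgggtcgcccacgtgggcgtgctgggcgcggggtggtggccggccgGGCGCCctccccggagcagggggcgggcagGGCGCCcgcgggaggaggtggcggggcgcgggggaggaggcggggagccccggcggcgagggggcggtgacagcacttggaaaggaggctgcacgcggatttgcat
SMAD1: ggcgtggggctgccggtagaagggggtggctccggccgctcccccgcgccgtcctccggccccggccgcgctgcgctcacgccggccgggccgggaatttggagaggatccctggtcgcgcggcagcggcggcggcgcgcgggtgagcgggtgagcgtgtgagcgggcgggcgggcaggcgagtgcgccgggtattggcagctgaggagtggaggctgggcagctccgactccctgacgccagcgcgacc

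The SMAD3 stretch held 2 copies of GGCGCC and the SMAD1 stretch held none of the motifs. Their GC content over these 250 bases was 80.8% and 78%, where the median over the same 250 bases of all promoters of the table was 58%. The members have 15 start sites in the table, 5 each for SMAD1 and SMAD3, and the next counts take 1 per member, the one at the canonical start. In its full window of 300 bases, which adds 50 bases past the start site, GGCGCC was found for 4 of 6 members (SMAD2, SMAD3, SMAD4 and SMAD5), while 19.2% of all 35116 promoters held it. This share is not matched for GC content, which over the 250 upstream bases was also above the median of 58% for the other members. It was 84.4% for SMAD2, 68.4% for SMAD4, 70.4% for SMAD5 and 78.4% for SMAD9. CAGAC was found for 2 of 6 (SMAD3 and SMAD9) and in 45.3% of all promoters. TGACTCA (4.95% of all promoters) and AGAACA (14.8%) were found for 0 of 6 at these start sites. Over all 15 start sites GGCGCC was found at 7, CAGAC at 5, TGACTCA at 2 and AGAACA at 0. Other start sites of SMAD1 held GGCGCC (2 sites), CAGAC (1) and TGACTCA (1), and other start sites of SMAD3 held CAGAC (2 sites) and TGACTCA (1). All 6 members matched the table. A match is a run of letters and not a binding site.

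SMAD2, the close relative of SMAD3 in the TGFβ branch, lies on the minus strand of chromosome 18 from 47808957 to 47931146. Its normalized counts in wt-GR cells were 5230, 4939 and 4870 under vehicle and 4544, 4745 and 4444 under TGFβ1. In S134A-GR cells they were 4613, 4546 and 4446 under vehicle and 4663, 4431 and 4068 under TGFβ1. The wt-GR vehicle libraries were the highest 3 of the 12, and the other 9 overlapped. Between the lines under vehicle the log2 fold change was −0.14 (95% confidence interval −0.25 to −0.04, adjusted p = 0.0257 by limma), which 4 settings moved past the threshold. The call was lost without wt-GR vehicle replicate 1 (adjusted p = 0.0976), without S134A-GR vehicle replicate 2 (0.0554) or replicate 3 (0.0839), and with limma fitted without a trend (0.0523), and over all alternatives the adjusted p ranged from 0.011 to 0.0976. In wt-GR cells the difference under TGFβ1 was −0.13 (95% confidence interval −0.24 to −0.02, adjusted p = 0.0805 by limma), which missed the threshold although the libraries of the 2 groups did not overlap. This difference was called under 3 of 22 alternatives, the replicate block and the fits without S134A-GR TGFβ1 replicate 1 or 3 (range over the alternatives 0.0416 to 0.241). The other SMAD2 values were −0.06 between the lines under TGFβ1 (adjusted p = 0.326) and −0.05 for the response of S134A-GR cells (adjusted p = 0.564), both by limma.

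SMAD4, the common partner of both branches, was at similar levels throughout. It lies on the plus strand of chromosome 18 from 51028528 to 51085045. Its normalized counts in wt-GR cells were 3524, 3635 and 3347 under vehicle and 3294, 3628 and 3536 under TGFβ1, and in S134A-GR cells 3353, 3403 and 3463, then 3698, 3346 and 3437. All 4 groups overlapped. Its 4 log2 fold changes lay between −0.04 and 0.04. The 95% confidence intervals bound any change between −0.15 and 0.14, so a change of the size seen for SMAD3 between the lines under vehicle lies outside them. Within its canonical transcript 7.7% of 75-base stretches also occur in an annotated protein-coding gene that overlaps SMAD4 on the same strand. That gene has no symbol and was not among those measured.

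**Figure D2:**
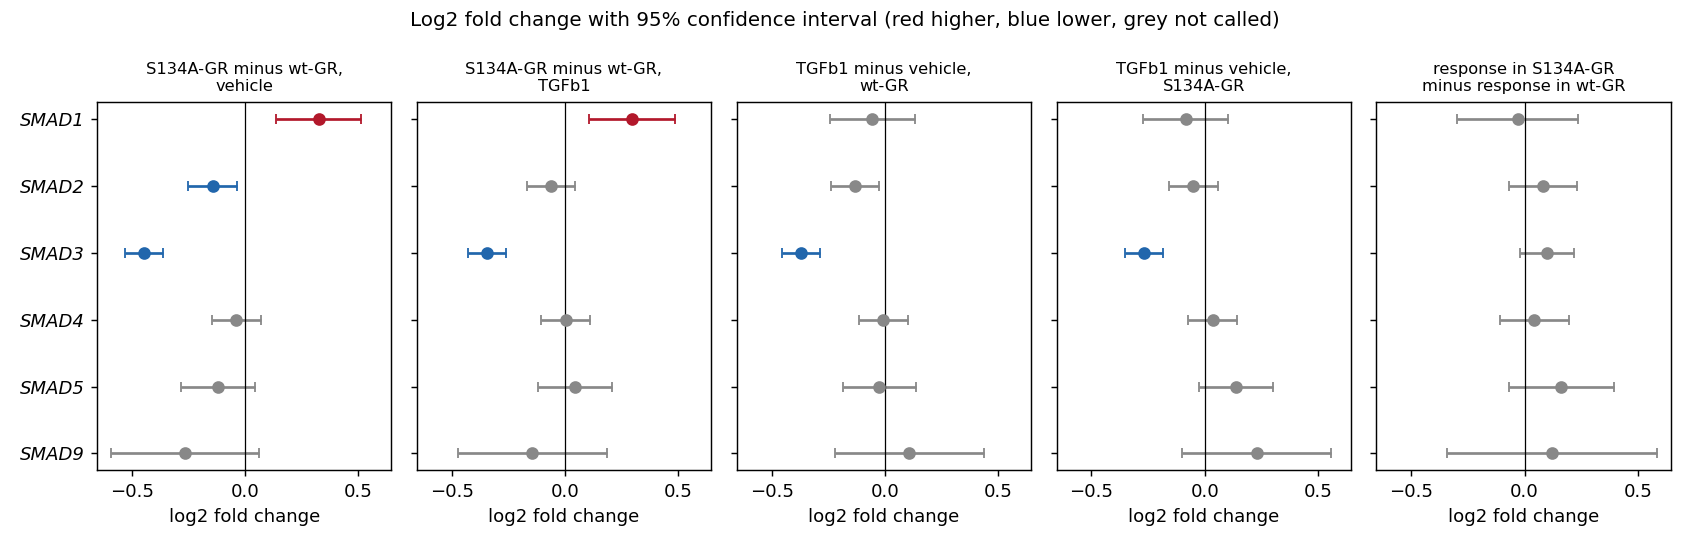
Log2 fold change (horizontal axes) of the 6 genes with its 95% confidence interval from limma in the 5 comparisons, red for called higher, blue for called lower and grey for not called. SMAD3 is blue in the first 4 panels, from −0.45 to −0.27, SMAD1 is red in the 2 comparisons of the lines, and all 6 intervals of the last panel cover 0.

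Among the SMADs of the BMP branch, SMAD1 was the member that differed between the lines. It lies on the plus strand of chromosome 4 from 145481194 to 145559176. In wt-GR cells its normalized counts were 824, 757 and 670 under vehicle and 788, 723 and 655 under TGFβ1. In S134A-GR cells they were 889, 960 and 962 under vehicle and 906, 829 and 917 under TGFβ1. Every S134A-GR library lay above every wt-GR library, by a narrow margin, and the treatments overlapped within each line. The log2 fold change between the lines was 0.32 under vehicle (standard error 0.0878, 95% confidence interval 0.14 to 0.51, adjusted p = 0.00648 by limma), or 1.25-fold. It was 0.30 under TGFβ1 (95% confidence interval 0.11 to 0.48, adjusted p = 0.0123 by limma). Without wt-GR TGFβ1 replicate 3 the second value was 0.23 and its call was lost (adjusted p = 0.0646, range over the alternatives 0.00367 to 0.0646), which left 1 of 6 members called in that comparison. The response to TGFβ1 was −0.05 in wt-GR and −0.08 in S134A-GR cells (adjusted p = 0.729 and 0.587 by limma). On the opposite strand 2 annotated genes overlap SMAD1, and 10.4% of 75-base stretches of its canonical transcript also occur in 1 of them, SMAD1-AS1. That gene was not among the symbols measured, so its reads and those of SMAD1 cannot be told apart without strand.

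SMAD5, another receptor-regulated SMAD of the BMP branch, lies on the plus strand of chromosome 5 from 136132845 to 136188747. Its normalized counts in wt-GR cells were 5980, 5637 and 4627 under vehicle and 5092, 5511 and 5289 under TGFβ1. In S134A-GR cells they were 4863, 5005 and 5009 under vehicle and 5788, 5099 and 5515 under TGFβ1. The wt-GR vehicle group held both the highest and the lowest SMAD5 value of the 12 libraries. No comparison was called, with log2 fold changes of −0.12 and 0.04 between the lines and −0.02 and 0.14 for TGFβ1 (adjusted p = 0.211, 0.668, 0.871 and 0.243 by limma). In S134A-GR cells the TGFβ1 libraries all lay above the vehicle libraries. Without wt-GR vehicle replicate 3 the difference between the lines under vehicle was −0.23 and was called (adjusted p = 0.0027, range over the alternatives 0.0027 to 0.662). Over the alternatives this difference ran from −0.23 to −0.04. SMAD5-AS1, on the opposite strand, was the only measured symbol that overlapped a member, at a mean of 7.36 normalized counts, and it was not called in any comparison (lowest adjusted p = 0.0534 by limma, between the lines under vehicle).

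The spread of the wt-GR vehicle libraries went along with transcript length. Across 12241 genes with a mean of at least 100 normalized counts, the deviation of a library from its group mean had a correlation with log2 transcript length of 0.345 in wt-GR vehicle replicate 1, which was also the shallowest library, and of −0.391 in replicate 3. In the other 10 libraries it lay between −0.199 and 0.193. Genes are not independent replicates, and the values describe these libraries only. SMAD1, SMAD2, SMAD3 and SMAD5 were each highest in replicate 1 and lowest in replicate 3 of this group, and the part of the length pattern in their values was not tested. The values without each of these 2 libraries are given above where they changed a call. Between the lines under vehicle SMAD1 was at 0.40 without replicate 1 and at 0.25 without replicate 3 and was called in both cases (adjusted p = 0.00237 and 0.031, range over the alternatives 0.00137 to 0.031). SMAD3 was called without either library between the lines under vehicle and for TGFβ1 in wt-GR cells, and was not called for the difference of the responses with or without them.

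SMAD9, the third SMAD of the BMP branch, was the member with the lowest level and the widest error. It lies on the minus strand of chromosome 13 from 36844831 to 36920887. Its normalized counts were 161, 231 and 183 in wt-GR cells under vehicle and 186, 207 and 223 under TGFβ1, and in S134A-GR cells 160, 178 and 137, then 197, 191 and 168. All 4 groups overlapped except for the vehicle group of S134A-GR against the TGFβ1 group of wt-GR cells. The log2 fold change between the lines was −0.27 under vehicle (95% confidence interval −0.59 to 0.06, adjusted p = 0.165 by limma) and −0.15 under TGFβ1 (−0.47 to 0.18). Over the alternatives these values ranged from −0.38 to −0.12 and from −0.22 to −0.08. For TGFβ1 the log2 fold change was 0.11 in wt-GR and 0.23 in S134A-GR cells (−0.0087 to 0.25 and 0.13 to 0.32 over the alternatives). Its group means were 164 to 223 reads per library. The SMAD9 intervals between the lines cover both 0 and the values of SMAD3, −0.45 and −0.34. For the TGFβ1 response the values of SMAD3, −0.37 and −0.27, lay outside the SMAD9 intervals of −0.22 to 0.44 in wt-GR and −0.10 to 0.56 in S134A-GR cells.

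No member was called for a difference between the lines in its TGFβ1 response. By limma 0 of 6 were called for the difference of the responses, where 77 genes or 0.414% of all genes were, and 0 of 6 had an unadjusted p under 0.05, where 1728 of 18579 genes did. The quasi-likelihood test of edgeR and the Wald test of DESeq2 on the recovered reads also called 0 of 6. The differences, as the response of S134A-GR minus that of wt-GR cells, lay between −0.03 for SMAD1 and 0.16 for SMAD5. Over the alternatives SMAD1 ran from −0.10 to 0.05 and SMAD5 from 0.09 to 0.27, and neither was called. The interval of SMAD9 was the widest, −0.34 to 0.59.

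Levels can be set side by side between genes only per length, and lengths depend on the transcript chosen. Per kb of the canonical GENCODE transcript, the mean over the 12 libraries was 4115 normalized counts for SMAD3, 754 for SMAD5, 396 for SMAD4, 274 for SMAD1, 133.7 for SMAD2 and 33.3 for SMAD9. This order held in all 12 libraries. SMAD3 had a higher level per kb than 89.9% of 17609 genes, whereas SMAD1, SMAD2, SMAD4 and SMAD5 had a higher level than 39.5% to 63.4% and SMAD9 than 27.7%. The place of SMAD2 rests on a canonical transcript of 34626 bases, of which 1401 are coding. Per kb of coding sequence SMAD2 stood at 3304, below SMAD5 at 3788 and above SMAD4 at 2097, with SMAD3 at 20863, SMAD1 at 590 and SMAD9 at 132. In 1 of 12 libraries SMAD2 was then above SMAD5. On both scales SMAD3 was first, SMAD5 second on average, and SMAD9 last.

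**Figure D3:**
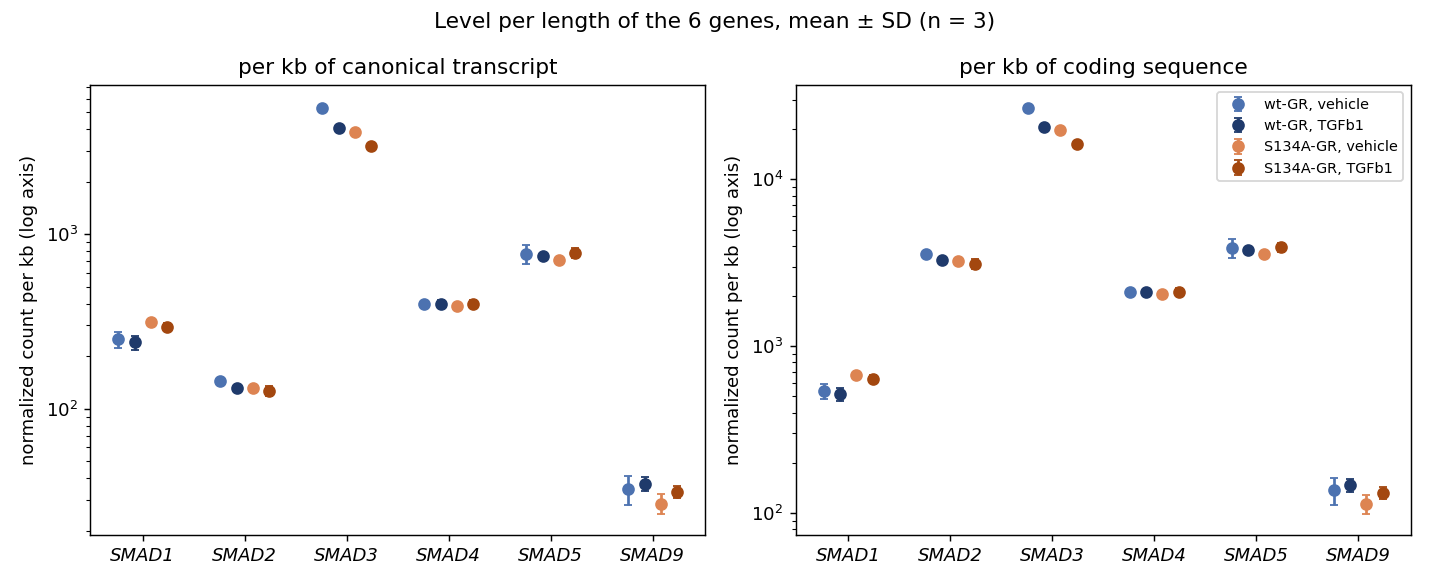
Normalized count per kb (log axes) of the 6 genes in the 4 groups, mean ± SD of 3 libraries, on the left per kb of the canonical transcript and on the right per kb of coding sequence. SMAD3 is highest and SMAD9 lowest in both panels, and SMAD2 moves from the fifth to the third place.

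The share of SMAD3 among the SMAD transcripts was highest in the vehicle group of wt-GR cells. Per kb of coding sequence, SMAD3 to SMAD2 ratios in wt-GR cells were 7.46, 7.56 and 7.43 under vehicle and 6.46, 6.02 and 6.55 under TGFβ1. In S134A-GR cells they were 6.12, 5.81 and 6.29 under vehicle and 4.75, 5.10 and 5.86 under TGFβ1. The wt-GR vehicle libraries stood apart at the top. The 3 BMP-branch SMADs together amounted to 0.150 ± 0.0137 (SD, n = 3) of SMAD2 plus SMAD3 in the wt-GR vehicle group and 0.186 ± 0.00736 with TGFβ1. In the S134A-GR line the values were 0.190 ± 0.00935 with vehicle and 0.241 ± 0.0155 with TGFβ1. SMAD3 is the larger part of SMAD2 plus SMAD3 and was called lower under TGFβ1 in both lines. SMAD1, SMAD5 and SMAD9 were not called for TGFβ1 in either line, so a rise of this ratio is not a rise of the BMP branch. SMAD3 made up 72.3% of the summed level of the 6 genes in wt-GR vehicle libraries and 62.2% in S134A-GR libraries with TGFβ1. All these values are per kb of coding sequence. Per kb of the canonical transcript the SMAD3 to SMAD2 ratio averaged 36.5 in the wt-GR vehicle group and 25.5 in S134A-GR cells with TGFβ1. These ratios are descriptions of chosen genes and were given no test, and they say nothing of protein or phosphorylation.

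The genes with the most similar pattern over the 12 libraries were found by Pearson's r among 12462 genes with a mean of at least 100 normalized counts. For SMAD3 they were PHF21A (r = 0.987), ALAS1 (0.986) and SLC6A6 (0.986), and 3.35% of the genes had an r over 0.9. For SMAD1 they were OCRL (0.965), TAF3 (0.963) and SETDB1 (0.952), and for SMAD2 CBR4 (0.937), KLHL20 (0.935) and DLGAP5 (0.929). For SMAD5 they were XIAP (0.937) and UHMK1 (0.932), and for SMAD9 METTL10 (0.969), PYROXD1 (0.889) and VAMP3 (0.883). SMAD4 had no gene over 0.9, with NBN (0.870), USO1 (0.856) and SMARCAD1 (0.845) closest. The 12 libraries share their group structure, so a gene that follows line and treatment will correlate with any other that does, and the best of 12462 values is high by selection.

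The neighbours of each gene on its chromosome were compared between the lines, since position was not used to choose the members. Of the 10 tested genes on each side of SMAD9 on chromosome 13, 10 of 20 were lower and 0 higher with S134A-GR than with wt-GR under vehicle, with a median log2 fold change of −0.36 beside 0.02 over all genes. With 25 genes on each side 30 of 50 were lower and 0 higher. ALG5, the next tested gene past SMAD9, was at −0.37 on the log2 scale (adjusted p = 0.000115 by limma). The value of SMAD9 itself, −0.27 (−0.38 to −0.12 over the alternatives), was in the same direction but not called. RFXAP, the nearest on the other side, was at −0.06 and was not called (adjusted p = 0.704 by limma). Around SMAD1 on chromosome 4, 7 of 20 were higher and 1 lower, so that 40% of these neighbours were called. In the wider window 20 of 50 were higher and 3 lower. Over all genes 25% were higher and 26.5% lower.

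Around SMAD3 on chromosome 15, 3 of 20 neighbours were higher and 5 lower, with a median of 0.02, equal to that of all genes to 2 decimals. With 25 genes on each side 9 of 50 were higher and 17 lower, with a median of −0.08. Its immediate neighbours included the inhibitory SMAD gene SMAD6 and AAGAB, both lower in S134A-GR cells (−0.36 and −0.25). SMAD2 and SMAD4 share chromosome 18 with SMAD7, which is the third tested gene past SMAD2. Neighbours of SMAD2 were higher in 5 and lower in 3 of 20 cases, those of SMAD4 in 7 and 2, and those of SMAD5 in 5 and 4. Over the 119 neighbours of all 6 genes 43.7% were called, beside 51.5% of all genes. ALG5, RFXAP and AAGAB were named for their position after their values were seen.

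**Figure D4:**
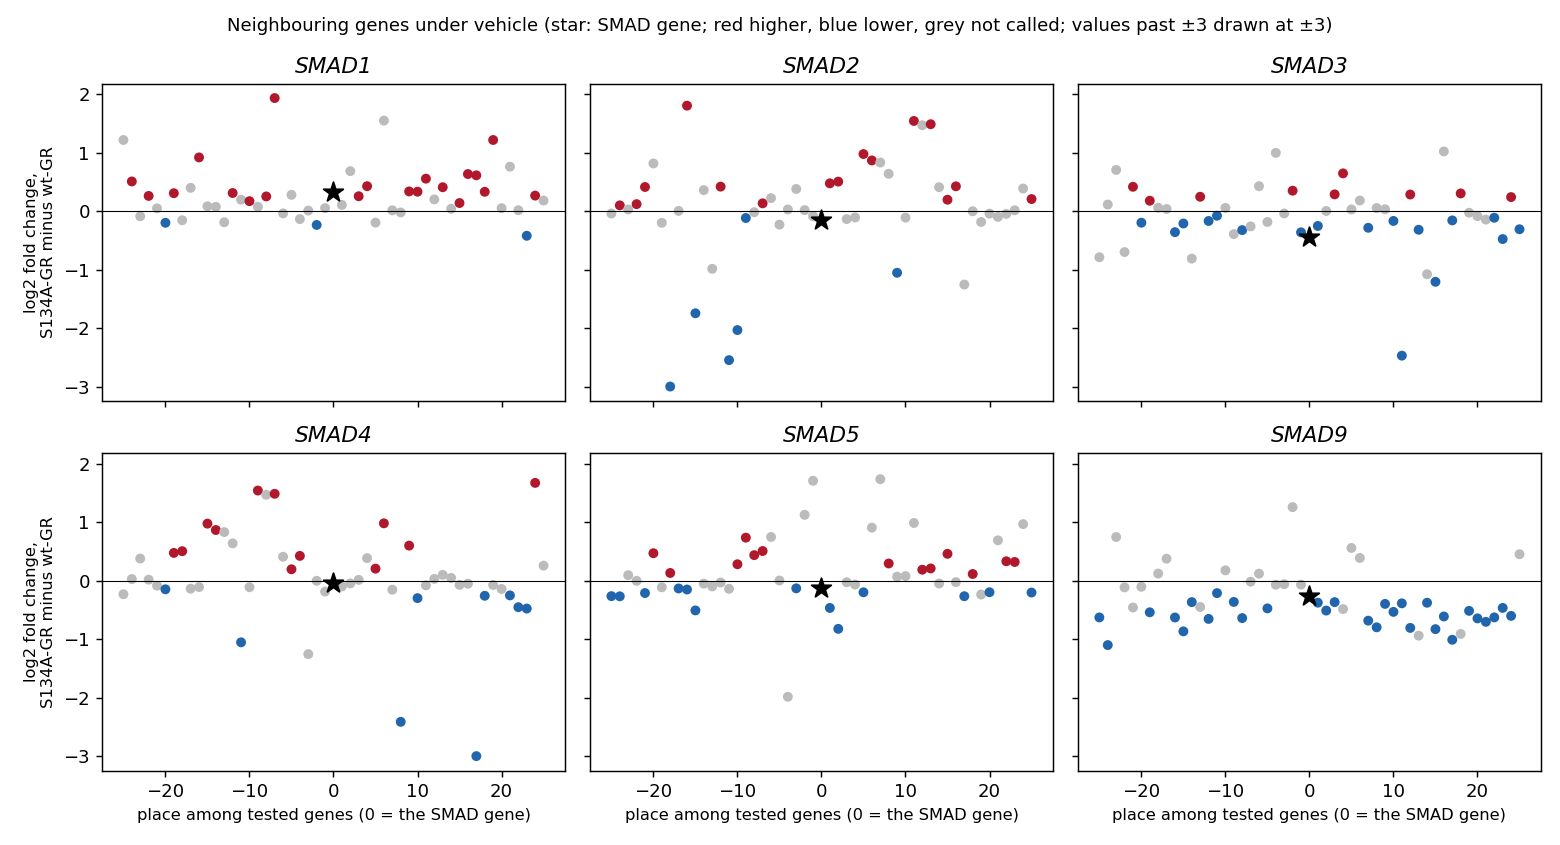
Log2 fold change between the lines under vehicle, S134A-GR over wt-GR (vertical axes) for the 25 tested genes on each side of each SMAD gene, by their order along the chromosome (horizontal axes), red for called higher, blue for called lower, grey for not called and a star for the SMAD gene. Around SMAD9 the called genes are all blue, 30 of 50, and around SMAD1 they are mostly red, 20 higher and 3 lower.

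Genes that act with the SMADs give the setting of these values, by lists chosen for their roles. List counts between the lines stand beside 25% of all genes higher and 26.5% lower under vehicle, and 23.1% and 25.7% under TGFβ1. Counts for TGFβ1 stand beside 11.2% higher and 9.82% lower in wt-GR, and 10% and 8.69% in S134A-GR cells. Nothing is called particular to a list from its counts. Of the inhibitory SMADs, SMAD7 rose under TGFβ1 in wt-GR cells from 1009, 875 and 902 to 2192, 2143 and 2029 normalized counts. In S134A-GR cells it rose from 874, 833 and 829 to 2224, 1939 and 2169. The log2 fold changes were 1.19 and 1.32 (adjusted p = 1.49e-08 and 6.47e-09 by limma), with the libraries of the treatments apart in both lines. It was not called between the lines (−0.13 under vehicle, adjusted p = 0.117 by limma). SMAD6 had 725, 892 and 935 in wt-GR against 655, 613 and 712 in S134A-GR cells under vehicle, without overlap. It was called lower in the S134A-GR line by limma (log2 fold change −0.36, adjusted p = 0.00491, and −0.40 under TGFβ1) and was not called for TGFβ1.

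Of the receptors, 1 of 12 genes was called higher and 4 were called lower with S134A-GR at each treatment, with medians of −0.12 and −0.07, beside 26.5% and 25.7% of all genes lower. BMPR1B, a type I receptor for BMPs, was the higher one (239 ± 20.1 against 408 ± 22.9 under vehicle, SD, n = 3). TGFBR1, ACVR1 and BMPR2 were lower under both treatments, with TGFBR1, the kinase that phosphorylates SMAD2 and SMAD3, at −0.43 under vehicle (adjusted p = 1.71e-05 by limma). TGFBR2, which binds the ligand, was at 60479 ± 1435 and 60025 ± 1592 normalized counts under vehicle and was not called. TGFβ1 raised ACVR1 and BMPR2 in both lines, while ACVRL1 fell in S134A-GR cells (difference between the lines not called, adjusted p = 0.866 by limma), and 10 and 9 of 12 were not called in wt-GR and S134A-GR cells. BMPR2 varied widely in the wt-GR vehicle group, at 9416, 7635 and 6145 normalized counts in replicates 1, 2 and 3. The part of the length pattern in these values was not tested.

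Of 11 genes for proteins that anchor, ubiquitinate, deubiquitinate or dephosphorylate SMADs, TGFβ1 raised 3 and lowered 1 in each line, though not the same 3. SMURF1 and SMURF2 rose in both, the phosphatase gene PPM1A passed the threshold in wt-GR cells (adjusted p = 0.0463, against 0.0674 in S134A-GR cells) and the deubiquitinase gene USP15 in S134A-GR cells (0.0477, against 0.99), and neither was called for a difference of the responses by limma. SMURF2, a ubiquitin ligase of the pathway, rose from 19790 ± 596 to 28748 ± 601 in wt-GR and from 15897 ± 492 to 25662 ± 305 in S134A-GR cells. NEDD4L, a ligase for activated SMAD2 and SMAD3, fell by 0.47 and 0.39 on the log2 scale. Between the lines under vehicle 1 of 11 was called higher (25% of all genes) and 5 were called lower (26.5%), USP15 with −0.49 (adjusted p = 2.19e-07 by limma), and under TGFβ1 2 were higher and 3 lower. STUB1, a ligase with a chaperone partner, was higher under both treatments (0.40 and 0.18).

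Of 7 nuclear partners, the corepressor genes SKI and SKIL rose under TGFβ1 in both lines, SKIL by 1.62 and 1.51 on the log2 scale, and TGIF2 fell by 0.15 in wt-GR cells (difference between the lines not called, adjusted p = 0.569 by limma). Between the lines SKI was called lower with S134A-GR (−0.43 under vehicle), and TGIF1 and FOXH1 were higher under both treatments, which gave 2 higher and 1 lower of 7. FOXH1, a DNA-binding partner of SMAD2 and SMAD3, was scarce, at 13, 21 and 25 normalized counts in wt-GR and 68, 55 and 46 in S134A-GR cells under vehicle. The coactivators EP300 and CREBBP were not called in any comparison.

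The targets of the TGFβ branch rose together under TGFβ1. Of 12 genes reported, SMAD7 and SKIL among them, 12 rose in the wt-GR line and 11 in the S134A-GR line, with median log2 fold changes of 1.21 and 1.06 beside −0.0046 and −0.0097 over all genes. PTHLH, at 0.44 in S134A-GR cells, was the gene that missed the threshold. For 4 of 12 the response was smaller in S134A-GR cells by limma's test of the difference, COL1A1 by −1.17, JUNB by −0.92, SNAI1 by −0.81 and PMEPA1 by −0.72 (adjusted p = 0.00265, 0.00164, 0.00717 and 0.000909). Over all genes 0.248% were called lower in this comparison, and the 77 genes called in either direction ranged from 22, without wt-GR TGFβ1 replicate 1, to 208, with DESeq2, over the alternatives. The authors had already reported JUNB, SNAI1 and COL1A1 from these libraries for TGFβ1 responses that differ between the lines. This list was written with such results known, so its count beside the share of all genes is not an independent result. JUNB, SNAI1 and PMEPA1 were called lower with S134A-GR under TGFβ1 (−0.82, −1.04 and −0.83). COL1A1 was not called there (−0.18, adjusted p = 0.159) and was called higher with S134A-GR under vehicle (0.99), at 2271 ± 139 against 1153 ± 198 normalized counts (SD, n = 3). Under TGFβ1, 8 of 12 were called lower and 1 higher with S134A-GR, beside 6 lower and 2 higher under vehicle.

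The targets of the BMP branch did not move together. Of 10 listed genes, SMAD6 and SMAD9 among them, TGFβ1 raised 1 and lowered 2 in wt-GR cells and lowered 3 in S134A-GR cells. ID3 and ATOH8 fell in both lines, ATOH8 from 184 ± 36.6 to 41.8 ± 10.6 in wt-GR and from 306 ± 10.5 to 66.2 ± 13.7 normalized counts in S134A-GR cells. HEY1 rose in wt-GR cells (0.57, adjusted p = 0.0112) and was at −0.05 in S134A-GR cells, but the difference was not called (adjusted p = 0.348 by limma). Between the lines 2 were higher and 3 lower under vehicle, then 1 and 4 under TGFβ1, with ID1 higher under vehicle (0.42) and ID2 lower under both treatments. NR3C1, the edited gene, was at −0.41 on the log2 scale between the lines under vehicle and at −0.31 under TGFβ1 (adjusted p = 0.00012 and 0.00134 by limma) and was not called for TGFβ1. Its wt-GR vehicle libraries were at 12729, 12139 and 10444 normalized counts, again highest in replicate 1 and lowest in replicate 3.

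**Figure D5:**
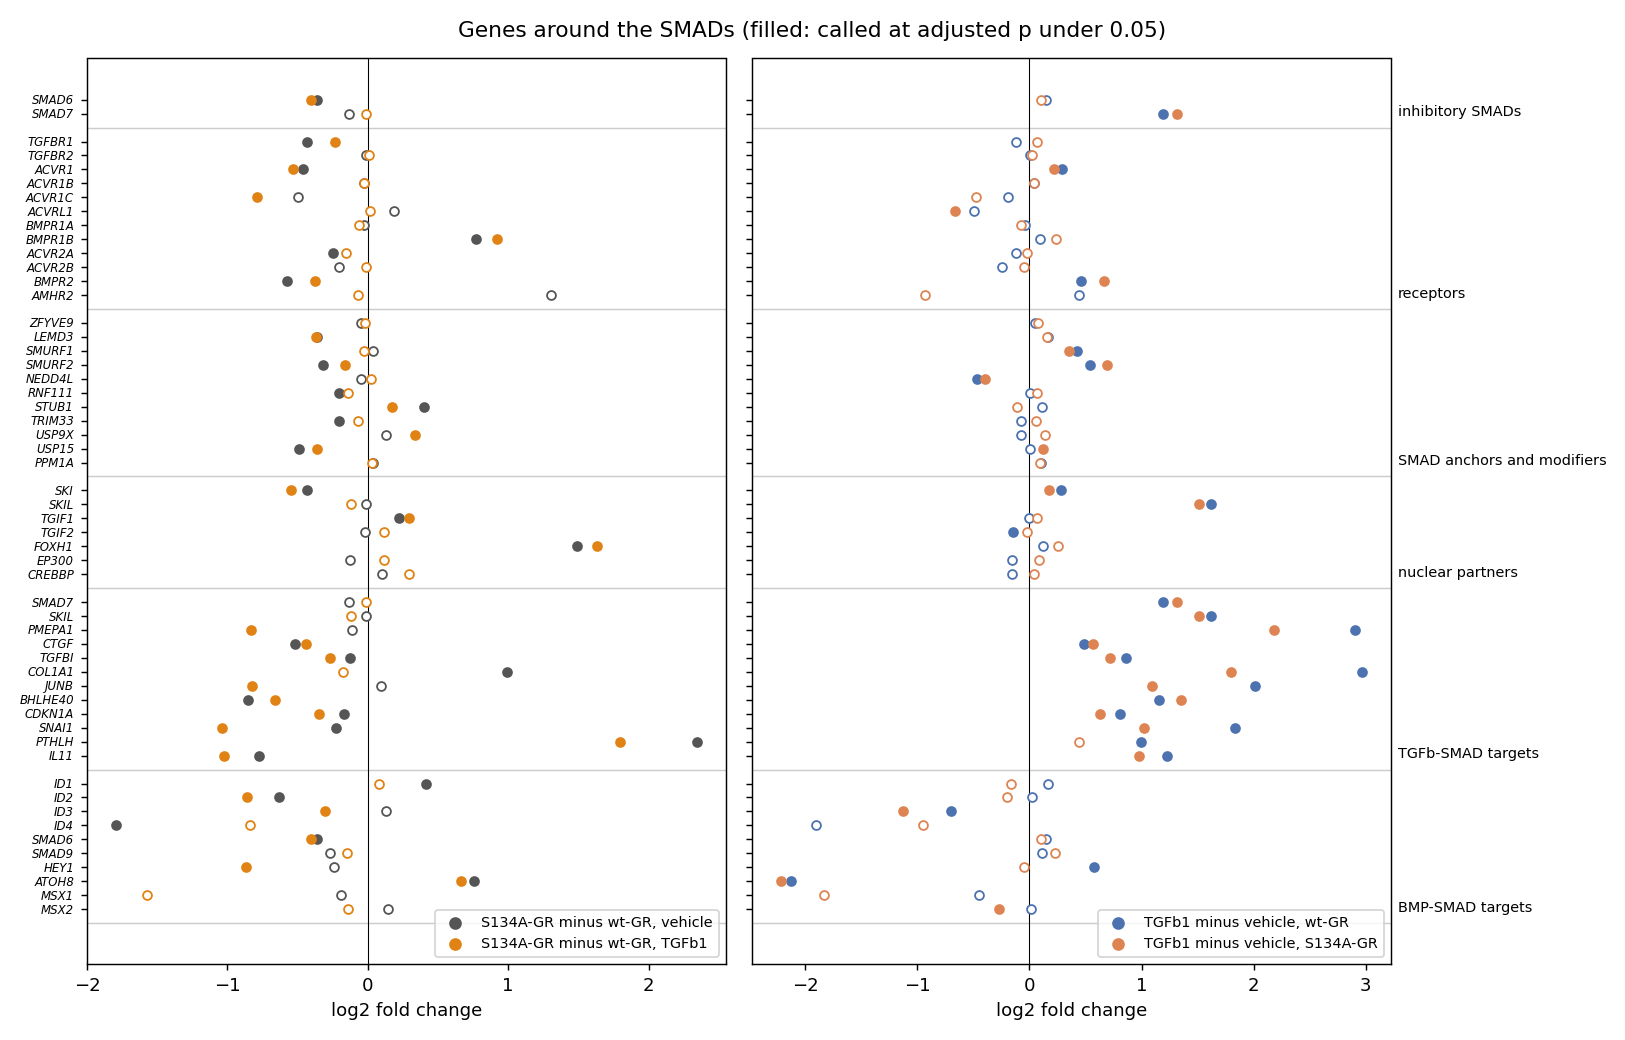
Log2 fold changes (horizontal axes) of the listed genes of the SMAD pathway, on the left S134A-GR over wt-GR at each treatment, on the right TGFβ1 against vehicle in wt-GR and S134A-GR cells, with filled points for an adjusted p under 0.05. The 12 targets of the TGFβ branch lie to the right of 0 in the right panel, and SMAD7 is at 1.19 and 1.32.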

How the data were processed

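Upstream, the authors used Trimmomatic for trimming, HISAT2 for alignment (hg38) and featureCounts for counting, then scaled each library by its DESeq2 (1.22.2) size factor. The deposited signal is therefore a normalized count per gene symbol and library. The annotation, the strand setting and how mates were counted are not given in the sources used here. Every value (100%, tolerance 0.001) was a whole number of steps in its library, and the step gave the reads back, on which edgeR called 9452 and DESeq2 9428 genes between the lines under vehicle. A floor of 3 reads equals 2.15 to 4.89 normalized counts and covers counting error alone.

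Genes with 10 or more reads over the libraries were fitted with limma 3.58.1 (R 4.3.3) on log2(normalized count + 1), 4 group means, empirical Bayes with a trend, and Benjamini-Hochberg adjustment over 18579 genes, two-sided. The added 1 understates changes of low genes. An exact permutation test of 3 against 3 libraries cannot go below 0.1. Alternatives were pseudocounts of 0.5 and 16, other filters, edgeR 4.0.16, DESeq2 1.42.0, TMM scaling, a replicate block, only the groups compared, no trend, and each library left out. Positions and lengths are from GENCODE (GRCh38), matched by current or older symbol for 94.8% of the genes tested.

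The members and lists were chosen with earlier results of these data known. Genes named are the members, the role lists, cell type markers and symbols formed from a member's symbol and a hyphen. Up to 3 genes most correlated with each member and the neighbours ALG5, RFXAP and AAGAB are also named. A listed target of the TGFβ branch and a correlated gene are not reported, for a reason unrelated to their values, but their values had been seen, so counts over those targets are not of the full list. The fit was tested on simulated data.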

Additional observations from a re-analysis of the deposited data

How the results depend on the processing

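Over 22 alternatives the 6 genes had 654 fold changes in the 5 comparisons. Of these 645 kept their side of the threshold, 5 calls were lost and 4 were gained, and no called value reversed. In 20 cases a value that was not called changed sign. SMAD3 was called in each of its 4 comparisons under every alternative, with a highest adjusted p of 0.0102.

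With the replicate block, SMAD2 passed the threshold for TGFβ1 in wt-GR cells (adjusted p = 0.0498, range over the alternatives 0.0416 to 0.241), which made 2 members called in place of 1. The block changed no other call of a member, and 3, 2, 1 and 0 were called in the other comparisons. Libraries with the same number did not deviate together (r −0.155 to 0.154 for 12468 genes, beside −0.196 to 0.222 with different numbers). No pairing by number was seen, and whether the numbers mark a shared batch is not given in the sources used here.

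Leaving out 1 library gave 2 to 4 members called between the lines under vehicle, 1 to 2 under TGFβ1, and 1 to 2 for TGFβ1 in wt-GR cells. There 2 were called without S134A-GR TGFβ1 replicate 1 or 3, which enter only through the shared spread. The 77 genes that differed in response were 208 with DESeq2, 29 without a trend, and 22 (without wt-GR TGFβ1 replicate 1) to 166 (without wt-GR vehicle replicate 3) with 1 library left out. Coding in place of transcript length left 3 of 6 genes at their place in the order, as the SMAD2 transcript is far longer than its coding part. TMM moved the median of all genes by at most −0.0111 (log2). In all other cases the cause was not tested. Depth limits SMAD9 most, at 164 to 223 reads per library.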
